A study of Mus musculus with 4 samples.

Results

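The nuclear genes for subunits of respiratory complexes II, III and IV, for cytochrome c and for complex V, the ATP synthase, were examined by RNA-seq in mouse LSK cells labelled wild type or knockout for Afg3l2. The members were the rows of the deposited gene table named Sdha, Sdhb, Sdhc, Sdhd, Cyc1 or Cycs, or with a name that begins with Uqc, Cox4, Cox5, Cox6, Cox7, Cox8 or Atp5, apart from names with -ps. This gave 49 of the 15255 genes of the table, of which 4 belonged to complex II, 11 to complex III, 1 was cytochrome c, 16 belonged to complex IV and 17 to complex V. The complex III rows held 8 subunits and 3 assembly factors, Uqcc1, Uqcc2 and Uqcc3. The name rule also left 4 rows with -ps outside, which had between 1.13 and 12.2 CPM. No row was named Uqcrc1 or Cox8b, so these genes were not analysed here.

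LSK cells are bone marrow cells that lack lineage markers and carry Sca-1 and c-Kit, a fraction that holds the blood stem cells and early progenitors. The libraries came from freshly isolated cells of mouse bone marrow and formed 2 groups of 2, Afg3l2 wild type (WT) and Afg3l2 knockout (KO). Neither the way in which Afg3l2 was deleted nor the age of the mice is given in the sources used here. The labels number the libraries of each group 1 and 2 and do not say whether they came from separate animals, so p-values measure the spread between these libraries. AFG3L2 is a subunit of the m-AAA protease, which degrades and processes proteins of the mitochondrial inner membrane, where complexes II to V reside.

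Complex II oxidises succinate and passes electrons to ubiquinone. Complex III moves them from ubiquinol to cytochrome c, and complex IV moves them from cytochrome c to oxygen. The proton gradient built by complexes III and IV drives the ATP synthase. Complexes III, IV and V mix subunits from nuclear genes with a few subunits from mitochondrial DNA, whereas all complex II subunits are nuclear. In blood stem cells these complexes are known to matter more as the cells leave quiescence and differentiate.

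The deposited values were read counts scaled per library, given here as CPM, and each library held between 16522338 and 17271936 reads in genes. CPM of all genes summed to between 974603 (WT 1) and 1.02475e+06 (WT 2), so CPM and shares of reads are not the same measure. Afg3l2 had 79.6 and 86.0 CPM in the WT libraries and 36.7 and 30.1 CPM in the KO libraries (log2 fold change -1.29, limma adjusted p = 0.0115), so its RNA was lower in both KO libraries and not absent. The summed CPM of 10 LSK markers was 1773 and 1006 in WT and 1035 and 673 in KO. Summed CPM of 4 B cell markers lay between 5311 and 7172 in the 4 libraries. That of 4 erythroid markers was 165 and 155 in WT and 304 and 416 in KO. Macrophage markers (4 genes) summed to 12.2 and 84.0 CPM in WT and 202 and 72.2 CPM in KO, and neutrophil markers (3 of 4 listed genes) to 55.9 and 555 CPM in WT and 262 and 195 CPM in KO. Xist had 0.113 and 15.7 CPM in the libraries numbered 1 and 889 and 1004 CPM in those numbered 2, and Ddx3y had 83.4 and 72.4 CPM in the libraries numbered 1 and 5.04 and 3.50 CPM in those numbered 2. These genes are expressed from the inactive X and from the Y chromosome, so the libraries of a group were not repeats of the same animal's RNA. Replicate number thus went with sex-linked RNA, and the spread within a group in the main test, which did not pair libraries by number, includes this split. The part of these differences in the results that follow was not tested. In bulk RNA, fewer cells of a type and less RNA per cell cannot be told apart.

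Cox6a2, a muscle isoform of complex IV, rose in KO. Most of the other subunit genes had slightly lower values without passing the main test, which did not pair libraries by number. The log2 fold change was below 0 for 36 of the 49 genes and above 0 for 13, whereas 51.6% of all genes of the table were below 0. The median log2 fold change of the 49 genes was -0.18, against -0.02 over all genes. Many members are short, and short protein-coding genes with 1 CPM or more had lower values in general. Of those with at most 300 coding bases 78.5% were below 0 (median -0.24), beside 17 of 19 members. Of those with 301 to 450 coding bases 71.4% were below 0 (median -0.18), beside 9 of 12 members. Of the 49, Cox6a2 rose and 0 fell at a limma adjusted p under 0.05, where 1.58% of all genes rose and 0.839% fell. At an unadjusted p under 0.05, 3 genes, Cox6a2, Atp5b and Uqcrc2, were higher (11.0% of all genes) and 10 were lower (9.79% of all genes). edgeR called Cox6a2 (1.88% of all genes called), and DESeq2 called Cox6a2 and Uqcrh (9.26%). The log2 fold changes are differences of log2(CPM + 1), which understates the change of genes with few reads. Both KO libraries lay below both WT libraries for 22 genes and above them for 10, against 26.9% and 27.2% of all genes, and the groups overlapped for 17.

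A second limma fit took the replicate number of the labels as a block, so that each KO library was set against the WT library of the same number. The authors' deposit calls the comparison paired, and a fit with the number as a term returned its log2 fold changes. With this replicate block 2 members passed as higher, Cox6a2 and Atp5b, and 4 as lower, Uqcrh, Uqcc3, Cox6c and Atp5mpl, where 6.64% of all genes passed as higher and 5.02% as lower. KO 1 was below WT 1 for 34 of the 49 genes, and KO 2 was below WT 2 for 33. The sign was the same within both numbers for 40 of the 49, against 70.9% of all genes. edgeR with the same block also called 6 members (11.7% of all genes). In the authors' deposited table the FDR was under 0.05 for 1 member that was higher, Cox6a2, and for 2 that were lower, Uqcrh and Uqcc3, and for 6.04% and 5.47% of all genes.

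**Figure D1:**
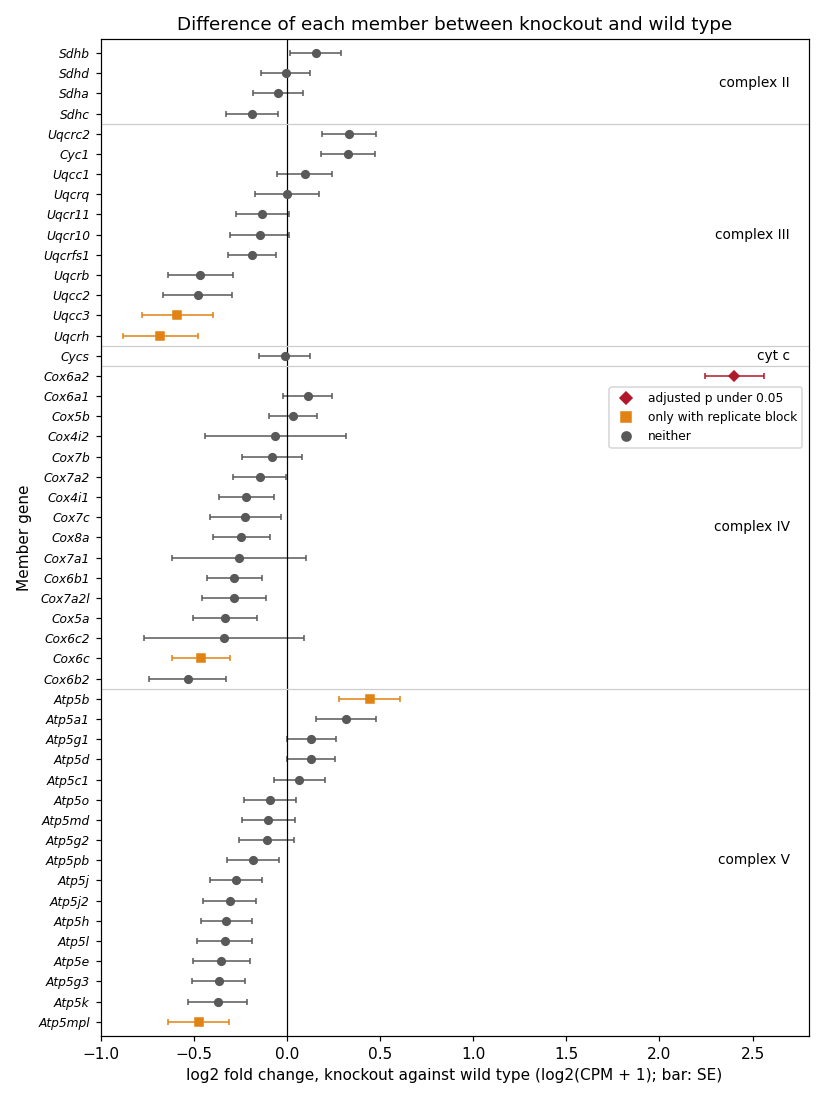
Log2 fold change (KO against WT, log2 of CPM plus 1) of each of the 49 genes, grouped by complex, with bars for the standard error from limma (2 libraries per group) and colours for genes that passed with or without the replicate block. Cox6a2 stands at 2.40 and the other 48 genes lie between -0.68 and 0.45.

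Per complex, the median log2 fold change was -0.03 for complex II, -0.15 for complex III, -0.23 for complex IV and -0.18 for complex V. With 1 library left out at a time it ran from -0.219 (without KO 1) to -0.043 (without KO 2) for complex III, from -0.355 (without KO 1) to -0.078 (without WT 1) for complex IV and from -0.259 (without WT 2) to -0.124 (without KO 2) for complex V, so the order of the 3 depends on the libraries used. The summed CPM of all 49 genes was nearly level, at 8844 and 8983 in WT and 8979 and 8751 in KO. As shares of reads it was 0.907% and 0.877% in WT and 0.894% and 0.878% in KO, which ranks the libraries differently. Complex II genes summed to between 732.5 and 773.6 CPM in the 4 libraries. Complex III genes summed to 1246 and 1247 CPM in WT and to 1226 and 1108 CPM in KO, lower in both KO libraries. As shares of reads these 11 genes overlapped, at 0.1279% and 0.1217% in WT and 0.1220% and 0.1111% in KO. Without the 3 assembly factors, the 8 subunits summed to 1075 and 1094 CPM in WT and to 1086 and 990 CPM in KO, with overlapping groups. Complex IV genes summed to 2469 and 2292 CPM in WT and to 2314 and 2016 CPM in KO, with overlapping groups. Complex V genes summed to 4229 and 4517 CPM in WT and to 4550 and 4726 CPM in KO, so that here both KO libraries were above both WT libraries although 12 of the 17 genes had a log2 fold change below 0. Atp5b and Atp5a1, the members with the highest CPM, were among the 5 genes above 0.

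**Figure D2:**
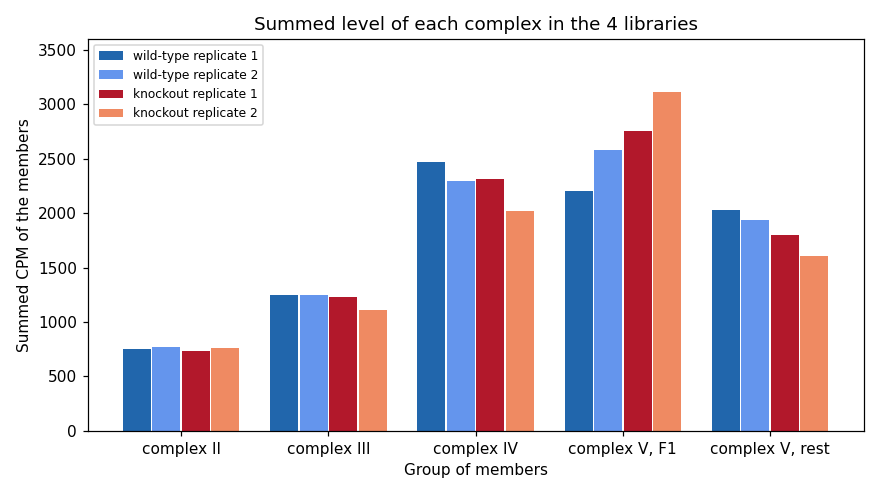
Bars give the summed CPM of the members of each complex in each of the 4 libraries (blue WT, red and orange KO), with complex V split into its F1 head and the rest. The F1 head runs from 2200 in WT 1 to 3116 in KO 2, and the rest of complex V from 2029 in WT 1 to 1610 in KO 2.

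The 4 genes of complex II, also known as succinate dehydrogenase, differed little between the groups. Sdha, the flavoprotein subunit that oxidises succinate, had 325 and 358 CPM in WT and 321 and 339 CPM in KO, with a log2 fold change of -0.05 and overlapping groups (limma adjusted p = 0.875). Sdhb, the iron-sulphur subunit, had 122 and 117 CPM in WT and 125 and 142 CPM in KO. Its KO libraries were above both WT libraries, with a log2 fold change of 0.15 that did not pass (limma adjusted p = 0.568). The membrane anchors Sdhc and Sdhd, which hold the haem and the ubiquinone site, had log2 fold changes of -0.19 and -0.01. Sdhc had 153 and 152 CPM in WT and 143 and 125 CPM in KO, and Sdhd 153 and 147 CPM in WT and 143 and 156 CPM in KO. None of the 4 genes passed limma with or without the block, and 0 had an unadjusted p under 0.05.

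In complex III the lowest log2 fold changes were those of Uqcrh, Uqcc3, Uqcc2 and Uqcrb, and the highest were those of Uqcrc2 and Cyc1. Uqcrh encodes the hinge protein, a small acidic subunit beside cytochrome c1, and lies on chromosome 4 (GRCm38, 116066965 to 116075071, minus strand). Its CPM was 228 in WT 1, 187 in WT 2, 155 in KO 1 and 107 in KO 2, so that both KO libraries lay below both WT libraries. The mean was 208 ± 29.1 CPM (SD, n = 2) in WT and 131 ± 34.3 CPM in KO, a ratio of 0.631 and a log2 fold change of -0.68 ± 0.20 (SE). This was the lowest value among the 49 genes. It did not pass limma (adjusted p = 0.130), passed with the replicate block (adjusted p = 0.0111) and passed by DESeq2 (adjusted p = 0.0420). With 1 library left out at a time the log2 fold change stayed between -0.95 and -0.41. The authors' deposited table gave it an FDR of 0.00410.

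The promoter window of Uqcrh and that of Atp5b are shown because these genes moved in opposite directions in the fit with the block. They are RefSeq windows of 300 bases (250 before and 50 after the annotated start; GRCm38.p6), at chr4:116075021-116075320 on the minus strand and chr10:128083057-128083356 on the plus strand. Capitals mark a match to CCGGAAG, the core recognised by the ETS factor GABP, on either strand.
Uqcrh: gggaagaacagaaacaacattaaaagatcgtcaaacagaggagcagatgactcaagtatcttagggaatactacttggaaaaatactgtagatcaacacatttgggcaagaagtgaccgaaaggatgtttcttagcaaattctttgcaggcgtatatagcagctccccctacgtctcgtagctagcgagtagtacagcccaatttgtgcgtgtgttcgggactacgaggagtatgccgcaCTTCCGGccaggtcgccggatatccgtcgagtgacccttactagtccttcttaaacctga
Atp5b: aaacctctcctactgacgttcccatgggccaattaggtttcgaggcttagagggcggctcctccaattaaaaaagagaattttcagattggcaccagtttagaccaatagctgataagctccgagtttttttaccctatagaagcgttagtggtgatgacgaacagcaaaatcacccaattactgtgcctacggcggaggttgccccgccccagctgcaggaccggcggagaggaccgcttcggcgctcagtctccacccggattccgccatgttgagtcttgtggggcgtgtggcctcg
Uqcrh holds 1 such match, just before the start, on the opposite strand of the gene, and Atp5b holds 0. Both windows held 0 matches to the NRF1 motif (GCGCA and GCGC with any single base between them), and 0 to AAGATGGC, the letters of the YY1 motif. NRF1, GABP and YY1 are known regulators of nuclear respiratory genes. RefSeq entries were found for 37 of the 49 genes, with 40 windows in all. CCGGAAG was in 13 of the 40 windows (32.5%) against 8.86% of 32851 windows of all genes. The NRF1 motif was in 10 of them (25.0%) against 4.60%, and AAGATGGC in 4 of them against 2.75%. A window with at least 1 of the 3 motifs made up 52.5% of the member windows and 14.7% of all windows, and both strands were searched. These are counts of letters, not of bound sites.

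Of the assembly factors of complex III, which help to make and stabilise cytochrome b, Uqcc3 (chromosome 19, 8880014 to 8880923, minus strand) had 55.3 and 44.9 CPM in WT and 37.4 and 28.8 CPM in KO. The KO libraries were both lower, with a log2 fold change of -0.59 ± 0.19 (limma adjusted p = 0.148, and 0.0310 with the block). Uqcc2 had 73.9 and 67.0 CPM in WT and 58.9 and 42.8 CPM in KO (log2 fold change -0.48, limma adjusted p = 0.199). Uqcc1 had 42.4 and 41.4 CPM in WT and 43.6 and 46.1 CPM in KO, a log2 fold change of 0.10. The 3 log2 fold changes thus ran from -0.59 to 0.10. The authors' deposited table listed Uqcc3 at an FDR of 0.0350.

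Among the other small subunits, Uqcrb, which sits near the ubiquinone site, had 75.7 and 68.5 CPM in WT and 59.5 and 45.3 CPM in KO, with no overlap and a log2 fold change of -0.46 that did not pass (limma adjusted p = 0.190). Uqcrq, Uqcr10 and Uqcr11, further small subunits, had overlapping groups. Their CPM ran from 132 to 175, from 72.5 to 91.4 and from 83.4 to 101. Cyc1, the haem-bearing cytochrome c1, had 175 and 206 CPM in WT and 227 and 251 CPM in KO, above the WT libraries in both (log2 fold change 0.33 ± 0.15, limma adjusted p = 0.248). Uqcrc2, a large core protein, had 121 and 139.7 CPM in WT and 156 and 173 CPM in KO (log2 fold change 0.33, limma adjusted p = 0.240). In its annotated transcript 22.7% of 100-base windows are also in Pdzd9 on the opposite strand, and whether counting used strand is not given, so its value is uncertain to that extent. In all, 8 members have over 20% of such windows in other genes, Uqcrc2, Cycs (24.7%), Cox6c2 (34.8%), Cox7c, Atp5g2, Atp5h (29.5%), Atp5l and Atp5o (30.3%). Reads from such windows can match another gene, so these values are uncertain too, also where no opposite strand is involved. Uqcrfs1, the Rieske iron-sulphur protein, had 142 and 146 CPM in WT and 127 and 125 CPM in KO, a log2 fold change of -0.19. Cycs, cytochrome c itself, had 146 and 153 CPM in WT and 157 and 141 CPM in KO, with a log2 fold change of -0.01 (limma adjusted p = 0.97).

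**Figure D3:**
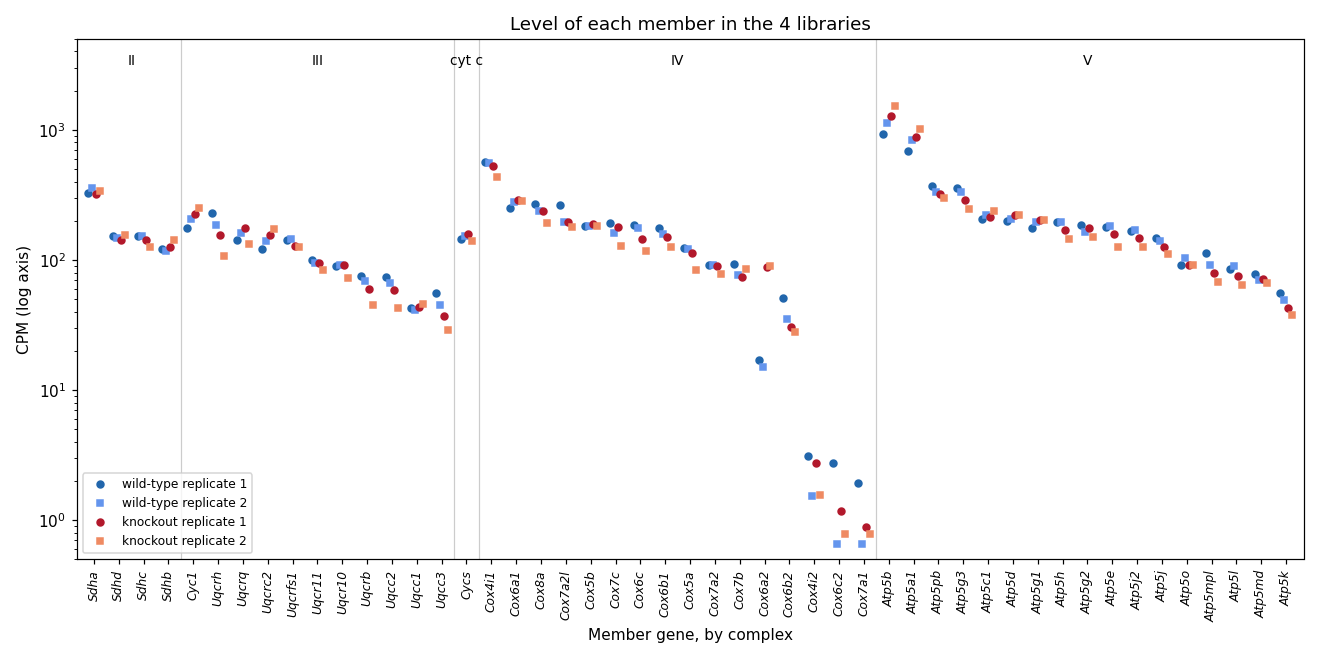
Each point gives the CPM (log axis) of a member in 1 of the 4 libraries (blue WT, red and orange KO, circles replicate 1, squares replicate 2), by complex. Cox6a2 is at 17.1 and 15.1 in WT and 87.8 and 90.6 in KO, and Uqcrh is at 228 and 187 in WT and 155 and 107 in KO.

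The 16 complex IV genes held the member that rose and 13 with a log2 fold change below 0. Cox6a2, the isoform of subunit VIa that is best known from heart and skeletal muscle and that in mouse blood marks plasmacytoid dendritic cells, had 17.1 CPM in WT 1, 15.1 in WT 2, 87.8 in KO 1 and 90.6 in KO 2. Each KO library was thus far above each WT library, and the replicates of a group were close. The mean rose from 16.1 ± 1.47 CPM (SD, n = 2) in WT to 89.2 ± 2.01 CPM in KO, a ratio of 5.54 and a log2 fold change of 2.40 ± 0.16 (SE). It passed limma (adjusted p = 0.00214), limma with the block (adjusted p = 0.000138) and edgeR (adjusted p = 0.00506), and its log2 fold change was number 36 of the 241 genes that rose. The log2 fold change of Cox6a2 was 2.38 in the fit without KO 2, where it lost its call, and 2.42 without KO 1. In these fits 1 residual degree of freedom comes from the WT pair, and the lone KO library is assumed to vary like it. WT 1 held 303 reads of Cox6a2 and KO 1 held 1478 reads. Its RNA was 4.87% ± 0.740 of the Cox6a pool in WT and 20.7% ± 0.449 in KO, each gene taken per kilobase of transcript.

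Cox6a2 lies at chr7:128205435-128206387 on the minus strand (GRCm38), and 10.3% of its exon bases, 70 bases, overlap Itgad on the opposite strand. Itgad had 1.36 and 4.21 CPM in WT and 6.53 and 2.41 CPM in KO, at most 6.53 CPM in any library. Cox6a1, the isoform found in most tissues, had 253 and 278 CPM in WT and 287 and 285 CPM in KO, with a log2 fold change of 0.11 (limma adjusted p = 0.675), which missed the threshold. The muscle markers Acta1, Ckm and Myh1 had no row among the 15255 genes, so they could not be examined. The 2 listed markers of plasmacytoid dendritic cells, Siglech and Ccr9, summed to 31.0 and 61.5 CPM in WT and to 6.12 and 10.5 CPM in KO. Siglech fell, from 24.3 and 50.5 CPM in WT to 2.32 and 5.73 CPM in KO (log2 fold change -2.93, limma adjusted p = 0.0376), so this marker and Cox6a2 differed in opposite directions.

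The coding sequences of both isoforms (GENCODE M21, GRCm38, stop codon excluded; for Cox6a1 the last 300 bases, positions 37 to 336) are shown because they bear on how far reads of the gene that rose can be told from those of its paralogue. Capitals mark positions that differ in the alignment of the pair, including bases with no partner.
Cox6a1: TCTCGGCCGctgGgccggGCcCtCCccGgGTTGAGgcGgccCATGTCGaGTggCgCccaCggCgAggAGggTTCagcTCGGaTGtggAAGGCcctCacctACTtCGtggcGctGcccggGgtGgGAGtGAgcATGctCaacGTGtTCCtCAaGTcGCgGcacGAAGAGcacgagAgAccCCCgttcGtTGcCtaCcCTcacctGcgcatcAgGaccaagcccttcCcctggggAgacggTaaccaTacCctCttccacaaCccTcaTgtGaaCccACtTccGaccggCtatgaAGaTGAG
Cox6a2: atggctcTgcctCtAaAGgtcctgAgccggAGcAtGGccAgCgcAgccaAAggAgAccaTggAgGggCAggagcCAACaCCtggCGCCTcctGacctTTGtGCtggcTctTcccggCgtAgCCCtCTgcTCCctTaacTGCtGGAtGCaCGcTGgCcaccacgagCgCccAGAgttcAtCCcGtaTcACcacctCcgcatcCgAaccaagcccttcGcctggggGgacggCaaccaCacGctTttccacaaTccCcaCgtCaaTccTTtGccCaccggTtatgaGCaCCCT
The coding sequence has 336 bases in Cox6a1, on the minus strand of chromosome 5, and 291 bases in Cox6a2. Of 291 aligned bases 188 were identical (64.6%), and the longest identical run was 12 bases, against reads of 150 bases.

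Of the other tissue isoforms, Cox4i2, known from lung, had 3.11 and 1.54 CPM in WT and 2.73 and 1.57 CPM in KO. Cox7a1, known from heart and skeletal muscle, had 1.92 and 0.653 CPM in WT and 0.891 and 0.784 CPM in KO. Cox6b2, known from testis, had 51.3 and 35.3 CPM in WT and 30.3 and 28.0 CPM in KO (log2 fold change -0.53, limma adjusted p = 0.203). Only Cox6a2 among these 4 isoform genes passed, and the share of Cox6b2 per kilobase was 21.4% ± 3.21 in WT and 18.4% ± 0.992 in KO. Cox6c2 had 2.77 and 0.653 CPM in WT and 1.19 and 0.784 CPM in KO, and 7.2% of the windows of the Cox6c transcript are also in it. The general isoforms Cox4i1, Cox6b1, Cox7a2 and Cox5b had log2 fold changes of -0.22, -0.28, -0.14 and 0.03, and 0 of them passed.

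**Figure D4:**
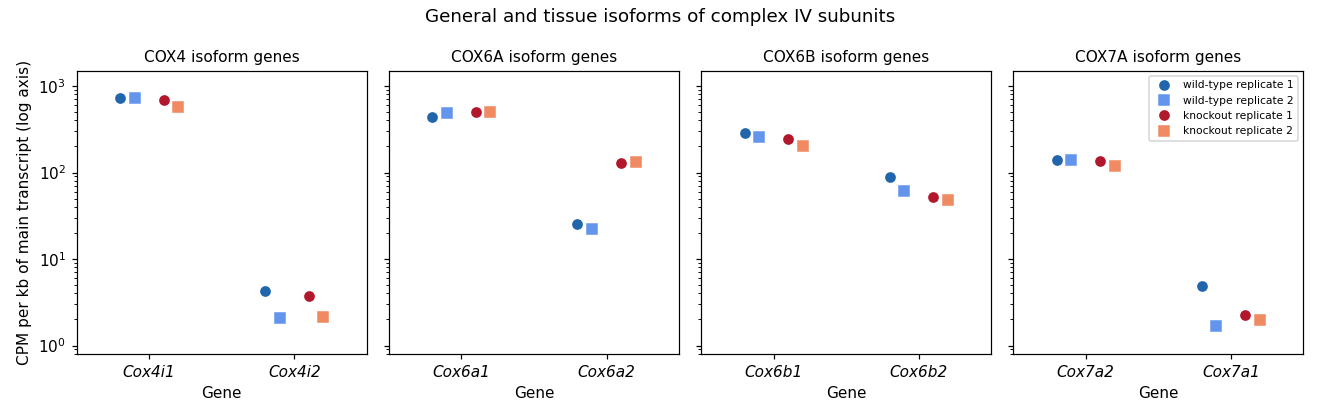
Each point gives the CPM per kilobase of transcript (log axis) of the general and the tissue isoform of 4 complex IV subunit families in 1 of the 4 libraries. Cox6a2 is at 4.87% of the Cox6a pool in WT and 20.7% in KO on average, while Cox4i2 and Cox7a1 overlap between the groups and Cox6b2 is lower in both KO libraries.

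Cox6c (chromosome 15, 35925886 to 35938246, minus strand), a small subunit with no catalytic metal, had 186 and 175 CPM in WT and 146 and 117 CPM in KO. Both KO libraries lay below the WT libraries, with a log2 fold change of -0.46 ± 0.15 (limma adjusted p = 0.155, and 0.0413 with the block). Cox5a, Cox7c and Cox8a, also small subunits, had log2 fold changes of -0.33, -0.22 and -0.24, and Cox7b, on the X chromosome, had -0.08 with 73.9 to 93.0 CPM. For Cox7c 44.4% of transcript windows are also found in other genes, so its value is uncertain. Cox7a2l, which helps to join complexes into supercomplexes, had 267 and 197 CPM in WT and 197 and 179 CPM in KO. Its groups overlapped (log2 fold change -0.28).

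In complex V the genes of the F1 head mostly had higher values in KO, and those outside it lower values. The F1 head, as grouped here, holds the alpha and beta subunits of the catalytic part. It also takes in the gamma, delta and epsilon subunits of the central stalk. The other subunits form the membrane ring, the peripheral stalk and the membrane base. Of 5 head genes 4 had a log2 fold change above 0 (median 0.13), and of the other 12 genes 11 were below 0 (median -0.29). Within the head, the alpha and beta genes had 0.32 and 0.45, and the gamma, delta and epsilon genes 0.07, 0.13 and -0.35. Summed CPM of the head was 2200 and 2579 in WT and 2754 and 3116 in KO, and of the other genes 2029 and 1938 in WT and 1796 and 1610 in KO. The rule that split the genes was their known role, and the difference between the splits was not tested.

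Atp5b, the catalytic beta subunit and the member with the highest CPM (chromosome 10, 128083273 to 128090391, plus strand), had 931 CPM in WT 1, 1126 in WT 2, 1280.0 in KO 1 and 1518 in KO 2. Both KO libraries were above both WT libraries, with means of 1028 ± 138 and 1399 ± 169 CPM (SD, n = 2). Its log2 fold change of 0.45 ± 0.16 missed the limma threshold (adjusted p = 0.185) and passed with the block (adjusted p = 0.0223). The authors' deposited table gave an FDR of 0.116. Atp5a1, the alpha subunit, which lies on chromosome 18, had 682 and 841 CPM in WT and 880.2 and 1009 CPM in KO (log2 fold change 0.32, limma adjusted p = 0.311). Atp5c1 and Atp5d, the gamma and delta subunits of the central stalk, had 208 to 239 CPM and 199 to 223 CPM, and log2 fold changes of 0.07 and 0.13. Atp5e, the epsilon subunit, was the head gene that was lower, with 180.1 and 182 CPM in WT and 159 and 126 CPM in KO (log2 fold change -0.35).

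Outside the head, Atp5mpl, a small proteolipid of the membrane part (chromosome 12, 111961375 to 111966977, minus strand), had 113 and 91.1 CPM in WT and 78.9 and 67.3 CPM in KO. The KO libraries were both lower, with a log2 fold change of -0.47 ± 0.17 (limma adjusted p = 0.171, and 0.0392 with the block). The c ring genes Atp5g1, Atp5g2 and Atp5g3, which encode the same mature ring protein, went different ways, with log2 fold changes of 0.13, -0.11 and -0.37. Atp5g3 had 357 and 335 CPM in WT and 290.0 and 248 CPM in KO (limma adjusted p = 0.204), and Atp5g1 177 and 195 CPM in WT and 203 and 204 CPM in KO. For Atp5g2 86.4% of transcript windows are also in other genes, so that its value is uncertain. Members of the peripheral stalk, Atp5pb, Atp5h, Atp5j and Atp5o, were all below 0, between -0.32 and -0.09. Atp5k and Atp5l, which help the ATP synthase to form dimers, had log2 fold changes of -0.37 and -0.33, and for Atp5l 69.0% of windows are also in other genes. Atp5j2 and Atp5md, further membrane subunits, had log2 fold changes of -0.31 and -0.10.

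The log2 fold change of the members tended to be higher where the coding sequence was longer, most of all in complex V. Across 48 members with a coding length, Spearman's rank correlation between the 2 was 0.51, and it was 0.71 across the 17 complex V genes, 0.43 across the 11 of complex III and 0.28 across 15 of complex IV. Of 19 members with a coding sequence of 300 bases or less, 17 were below 0 (median -0.26). Of the 5 members with more than 900 bases 1 was below 0, and Atp5a1 and Atp5b, of the ATP synthase head, were 2 of the 3 with more than 1500 bases. Other genes followed the same direction, with a rank correlation of 0.17 over 11932 protein-coding genes with 1 CPM or more. Of these, 5290 had more than 1500 coding bases, so this correlation and that of the members cover unlike ranges of length. At 300 coding bases or less, 78.5% of 260 such genes were below 0, with a median of -0.24 close to the -0.26 of the members. The same trend stood between libraries of 1 group, at 0.48 across the members for WT 2 over WT 1 and 0.51 for KO 2 over KO 1. These correlations are across genes, which share libraries and are not independent replicates. The part of transcript length in the differences between WT and KO was not tested.

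**Figure D5:**
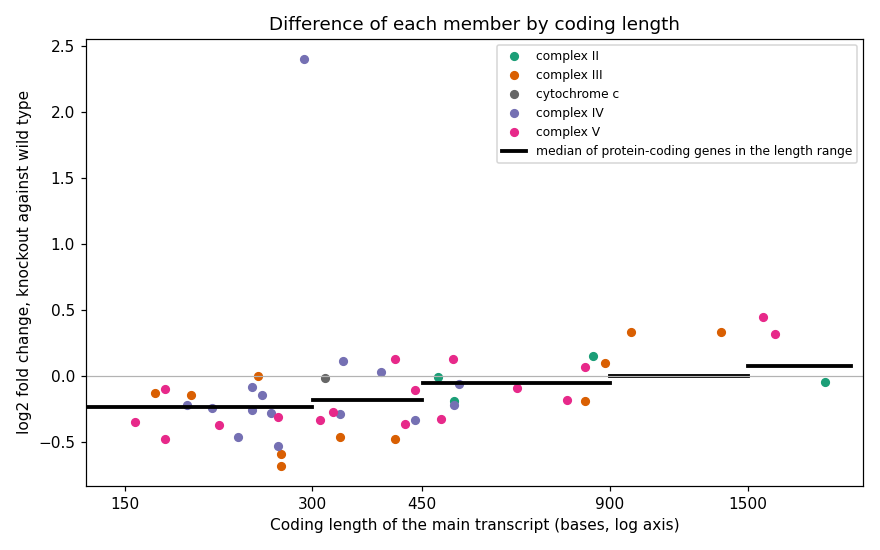
Log2 fold change (KO against WT) of the members against the length of the coding sequence in bases (log axis), coloured by complex, with black lines for the median of protein-coding genes in each length range. Members of 300 bases or less lie mostly below 0, with 17 of 19 negative.

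The genes that assemble, regulate or work beside the complexes were examined in the same fits. Of 99 measured assembly factors, regulators, other subunits and partners, 0 passed limma, where 1.58% of all genes rose and 0.839% fell, and with the block 3 passed as higher and 3 as lower, where 6.64% and 5.02% of all genes did. Pet100, an assembly factor of complex IV, had 30.0 and 26.0 CPM in WT and 18.5 and 12.6 CPM in KO (log2 fold change -0.83, limma adjusted p = 0.116, 0.0252 with the block). Coa5, another, had 134 and 158 CPM in WT and 182 and 205 CPM in KO (log2 fold change 0.41, limma adjusted p = 0.180, 0.0495 with the block). Ndufa4, a subunit now assigned to complex IV, had 237 and 184 CPM in WT and 151 and 114 CPM in KO (log2 fold change -0.67, limma adjusted p = 0.116, 0.00931 with the block). Of the 20 measured assembly factors of complex IV 13 were above 0 (median 0.10). The 4 assembly factors of complex II and the 3 of complex III had medians of -0.07 and 0.08, and 6 assembly and accessory genes of complex V, among them the inhibitor Atpif1 and with the assembly factor Atpaf1 the highest at 0.46, a median of -0.01. Dhodh, which feeds electrons to ubiquinone during pyrimidine synthesis, had 35.7 and 34.6 CPM in WT and 46.5 and 44.7 CPM in KO (log2 fold change 0.37, limma adjusted p = 0.224).

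Of 15 regulators 10 were above 0 (median 0.12). Pprc1, a coactivator of nuclear respiratory genes, had 84.1 and 96.7 CPM in WT and 134 and 149 CPM in KO (log2 fold change 0.64, limma adjusted p = 0.0678, 0.0121 with the block). Lrpprc, which stabilises mitochondrial mRNA, had 101 and 116 CPM in WT and 138 and 176 CPM in KO (log2 fold change 0.51, limma adjusted p = 0.145, 0.0271 with the block). The 6 mitochondrially encoded partners were all below 0 (median -0.37), but the groups overlapped for 5 of them. The exception, mt-Co1, had 15264 and 23946 CPM in WT and 14468 and 11084 CPM in KO (log2 fold change -0.59, limma adjusted p = 0.235). Its log2 difference was -0.08 between the libraries numbered 1 and -1.11 between those numbered 2. KO 2 was below WT 2 for 4 of the 6, with mt-Atp6 and mt-Atp8 the other way. The mean of these partners in WT ran from 2.45 CPM for mt-Atp8 to 19605 CPM for mt-Co1. The cause of this wide range was not tested, so these CPM are not read as levels of the mRNAs. Among those with overlap, mt-Co2, with 82.8 and 373 CPM in WT and 50.4 and 133 CPM in KO, passed limma with the block (adjusted p = 0.0390). The 35 nuclear genes of complex I had a median of -0.19, with 29 below 0, close to the -0.18 of the 49 members.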

How the data were processed

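RNA was sequenced from poly-A selected, randomly primed libraries with single-end reads of 150 bases, per the labels' protocols. Reads were processed with STAR 2.7.10a and featureCounts 2.0.1 on GRCm38.p6, per the submitters' processing notes; strandedness is not given in the sources used here. The authors deposited a signal value per gene and library, in CPM, with log2 fold changes, a likelihood ratio score and p-values and FDR. All values (100%) came out as whole reads within 0.01. An edgeR likelihood ratio fit with the replicate number as a term returned the deposited log2 fold changes within 3.63e-08.

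The main test was limma 3.58.1 (R 4.3.3) with trend and robust moderation on log2(CPM + 1), two-sided, adjusted by Benjamini-Hochberg over 15255 genes, called at 0.05, with 2 residual degrees of freedom. Alternatives were the replicate block (1 degree of freedom), edgeR 4.0.16, DESeq2 1.42.0, limma-voom, a pseudocount of 0.1 CPM, a stricter filter, median-of-ratios scaling and leaving out each library. Deviations of same-numbered libraries correlated at 0.286 over 13795 genes, and Xist and Ddx3y split the libraries by number. The authors' deposit calls the comparison of KO and WT paired, and the labels do not say what the number shares. The limma step was tested on simulated data.

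Coordinates and lengths came from GENCODE M21 (15226 gene IDs found, 29 not found). The members, gene lists and tests were chosen with earlier results of these data known. Named genes were all of complex II, the 3 smallest p per direction and the 2 highest CPM of complexes III to V, paralogues, and every gene called with or without the block; the other members are given by their values to account for all 49, and the alternatives were run per gene for the 31 that the rule names.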

Additional observations from a re-analysis of the deposited data

How the results depend on the processing

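The count of members passing was 1 in the main fit. It was 6 with the replicate block in limma and 6 with the block in edgeR, 2 by DESeq2, and between 0 and 2 with 1 library left out. Over all genes the count was 369 in the main fit, 1779 and 1789 with the block in limma and edgeR, 1221 by DESeq2, 117 by limma-voom, and between 0 and 1068 with 1 library left out. The median log2 fold change of complex II was -0.03 and lay between -0.076 and 0.023 with 1 library left out. Among the 31 members named by rule, left-out libraries also turned the sign of values near 0: Sdha ran from -0.12 to 0.023, Sdhd from -0.067 to 0.053, Cycs from -0.091 to 0.068, Cox4i2 from -0.41 to 0.28, Cox7a1 from -0.67 to 0.15 and Atp5g2 from -0.22 to 0.0045. Cox6b2 passed as lower without WT replicate 2 (-0.80, limma adjusted p = 0.0448). Such fits have 1 residual degree of freedom, from the group that keeps its pair, and the lone library is assumed to vary like it. Cox6a2 lost its call without KO replicate 2, where its log2 fold change was still 2.38. Its adjusted p over all alternatives with every library ran from 3.88e-31 to 0.0187. The cause of these shifts was not tested. Cox4i2, Cox6c2 and Cox7a1, at 3.11 CPM or less, had the highest standard errors among the members, between 0.36 and 0.43.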
